A study of Mus musculus with 46 samples.

Results

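Keratinocytes are the cells of the epidermis, and the 41 genes described here encode their keratins, their desmosomes and the proteins, proteases and lipid enzymes that build the cornified outer layer. They were taken as a fixed list of gene names, and all 41 were found among the 46011 complete rows of the counts table, so none was dropped. RNA had been sequenced from 46 AB1-HA tumors, a murine mesothelioma line carrying the influenza hemagglutinin antigen and grown under the skin of both flanks of BALB/c mice that the labels give as male and 8 to 10 weeks old. Every mouse received cyclophosphamide (CY) at 200 mg/kg on day 10 after inoculation, and 1 tumor per mouse was removed by surgery on day 9 (Day-1), day 13 (Day+3) or day 17 (Day+7). The tumor left in place gave the response: complete response (CR), or the group labelled PR, which the series text calls partial responders and the study calls progressors. There were 13 CR and 13 PR tumors at Day-1, 5 CR and 5 PR tumors at Day+3, and 5 CR and 5 PR tumors at Day+7, each from a different mouse. Day-1 tumors had seen no drug, the Day+3 and Day+7 tumors had, and no tumor of untreated mice at day 13 or 17 was included, so the drug, tumor age and time cannot be told apart.

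In the epidermis, basal cells make the keratin pair Krt5 and Krt14, stop dividing as they move outwards, and switch to Krt1 and Krt10. In the outermost living layer they make filaggrin and loricrin, which are cross-linked into a cornified envelope, while lipoxygenases, elongases and ceramide synthases make the lipids that seal it and kallikreins later cut the desmosomes so that dead cells can be shed. Krt16 and Krt17 are made in wounded or stressed epidermis and in hair follicles, and Krt79 in the upper hair follicle and the ducts of sebaceous glands. AB1-HA cells descend from mesothelium, the lining of the body cavities, and the tumors had grown directly under skin.

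Library depth ran from 10227681 to 14218987 counts at Day-1, from 15412744 to 18748688 at Day+3 and from 16047930 to 19446596 at Day+7, so depth moved with time. Levels are given as CPM (counts per 1000000 of the library total after TMM scaling). A count of 0 allows a level of up to 0.211 to 0.297 CPM at Day-1, 0.147 to 0.179 CPM at Day+3 and 0.165 to 0.209 CPM at Day+7, and these limits cover counting error only. No pair of libraries was a duplicate. For these genes single tumors stood far apart from the others: CT21, CT15, CT19 and CT22 at Day-1, CT3_2 at Day+3, and CT7_3 and, for some genes, CT7_10 at Day+7. Some of the fold changes that rest on 1 of them are given with and without it.

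The promoters of 4 late differentiation genes are shown because their 250 bases upstream share TGANTCA close to a TATA box. TGANTCA is a loose form of the motif of AP-1, the factor family known to drive late epidermal genes. They are RefSeq sequences on GRCm38.p6 and end at the base before the annotated start. Capitals mark TGANTCA, where N is any base and the pattern is the same for both strands, and TATAAA on the gene's strand. Lor encodes loricrin (chr3:92083143-92083392, minus strand), Ivl encodes involucrin (chr3:92573736-92573985, minus strand), and Flg encodes filaggrin (chr3:93273296-93273545, plus strand). All 3 lie in the epidermal differentiation complex, and Krtdap, which encodes a secreted peptide of differentiating keratinocytes, lies elsewhere (chr7:30787655-30787904, plus strand).
Lor promoter: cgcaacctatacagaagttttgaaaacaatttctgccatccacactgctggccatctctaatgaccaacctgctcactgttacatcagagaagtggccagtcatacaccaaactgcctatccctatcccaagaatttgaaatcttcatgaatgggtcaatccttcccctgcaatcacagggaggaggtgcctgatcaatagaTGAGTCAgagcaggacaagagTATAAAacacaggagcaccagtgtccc
Ivl promoter: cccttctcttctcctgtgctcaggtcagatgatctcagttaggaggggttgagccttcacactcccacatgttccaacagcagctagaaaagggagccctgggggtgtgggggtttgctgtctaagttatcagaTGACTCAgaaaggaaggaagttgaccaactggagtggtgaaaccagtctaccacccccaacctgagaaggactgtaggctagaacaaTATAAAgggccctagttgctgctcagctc
Flg promoter: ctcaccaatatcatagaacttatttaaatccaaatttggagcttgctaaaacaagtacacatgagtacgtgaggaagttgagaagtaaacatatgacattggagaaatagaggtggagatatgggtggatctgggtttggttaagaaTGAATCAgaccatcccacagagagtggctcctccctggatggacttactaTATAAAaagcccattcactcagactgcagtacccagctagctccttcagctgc
Krtdap promoter: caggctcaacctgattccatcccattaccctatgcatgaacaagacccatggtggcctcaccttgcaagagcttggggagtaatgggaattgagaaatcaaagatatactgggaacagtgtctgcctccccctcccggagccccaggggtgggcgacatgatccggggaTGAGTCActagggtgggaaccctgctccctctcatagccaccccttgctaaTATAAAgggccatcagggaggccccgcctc
TGANTCA began 48 bases before the start in Lor, 116 in Ivl, 103 in Flg and 81 in Krtdap. The TATA box began 27 bases before the start in Lor, 29 in Ivl, 53 in Flg and 30 in Krtdap. These starts are those of RefSeq. GENCODE M21, the source of the gene coordinates below, starts Flg at chr3:93273523 and Krtdap at chr7:30787896, both inside the sequences shown. Of the 41 genes, 29 matched the promoter table, and 6 of the 29 (20.7%) held TGANTCA, namely Lor, Ivl, Flg, Flg2, Krtdap and Dmkn, against 6.87% of 27025 promoters of the same length. The middle base was A in Flg and Flg2, and G or C in Lor, Ivl, Krtdap and Dmkn. TATAAA was in 6 of the 29 (20.7%), namely Lor, Ivl, Flg, Hrnr, Krtdap and Krt10, against 8.12% of all promoters. These are matches of letters and not mapped binding sites.

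Some members cannot be fully told apart by short reads. Krt14 and Krt16, on chromosome 11, share an unbroken run of 134 coding bases, shown in capitals with 20 bases of each gene on either side, because the comparison of basal and stress keratins below turns on this pair.
Krt14 coding bases 286 to 459: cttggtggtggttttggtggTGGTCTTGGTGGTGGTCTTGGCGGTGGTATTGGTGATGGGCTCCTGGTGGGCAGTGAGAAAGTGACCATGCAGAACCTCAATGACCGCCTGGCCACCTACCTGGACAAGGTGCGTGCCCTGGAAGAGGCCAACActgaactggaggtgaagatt
Krt16 coding bases 262 to 435: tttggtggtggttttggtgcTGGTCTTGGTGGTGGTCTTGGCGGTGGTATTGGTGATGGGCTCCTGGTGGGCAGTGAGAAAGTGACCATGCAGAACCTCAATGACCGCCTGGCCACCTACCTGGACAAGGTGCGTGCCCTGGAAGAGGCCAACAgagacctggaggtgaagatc
Stretches of 31 bases found in another gene made up 51.9% of the Krt16 transcript, 29.1% of Krt14, 15.8% of Krt17, 12.8% of Krt5 and 41.4% of Dsg1a, whose copies are Dsg1b and Dsg1c. The estimated split of reads among these copies is therefore uncertain. Exons of Krt5, Krt10, Dsp, Klk8, Lipm and Lypd3 overlapped a gene on the other strand, whose reads cannot be separated where strand was not used.

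The members were low in most tumors and high in a few. At Day-1 a tumor had between 4 and 41 of the 41 genes at 1 CPM or more, with a median of 8.5. At Day+3 the range was 5 to 41 with a median of 6.5, and at Day+7 it was 7 to 40 with a median of 15. Only Cdh1, encoding E-cadherin, and Asprv1, encoding a skin protease that cuts profilaggrin, reached 1 CPM in all 46 tumors. Klk9 reached it in 3. Per kilobase of transcript, averaged over the 46 tumors, the highest levels were 12.7 CPM per kb for Krt14, 12.1 for Cdh1, 10.3 for Krt5, 9.62 for Asprv1 and 6.57 for Krt16, and the lowest was 0.0859 for the lipoxygenase Alox12b.

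**Figure D1:**
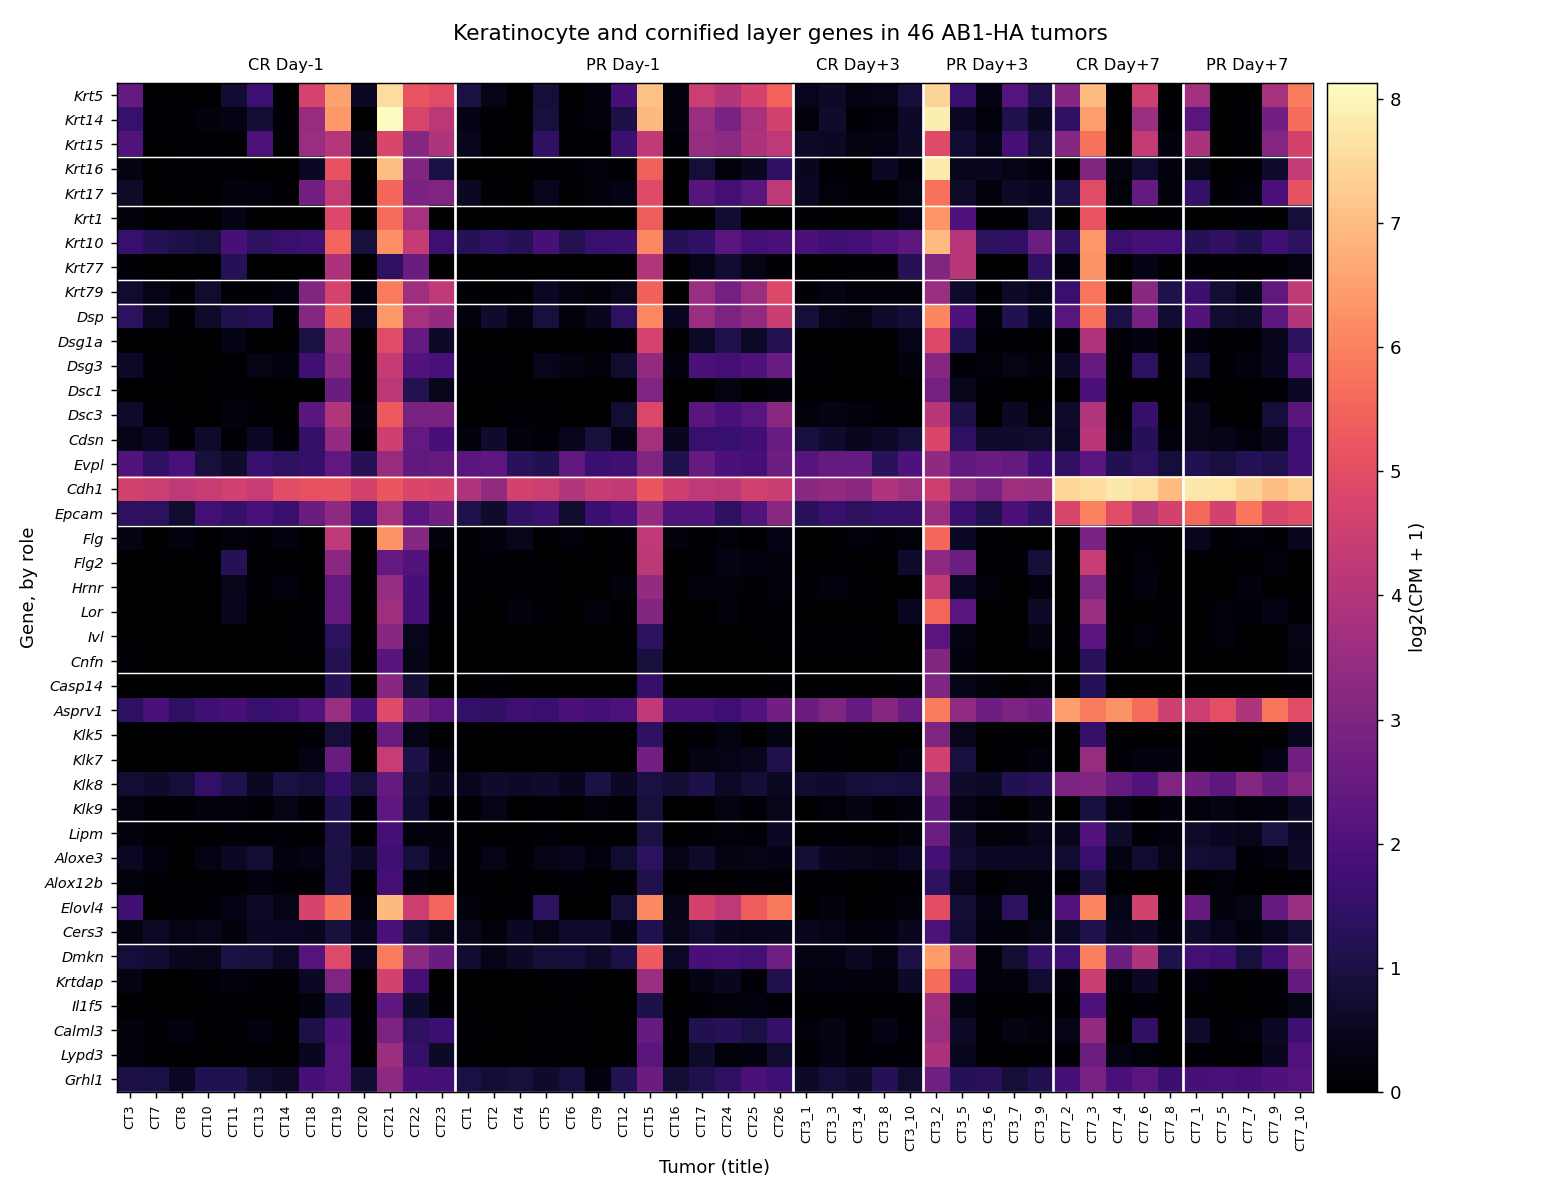
Level of each of the 41 genes (down, ordered by role) in each of the 46 tumors (across, by group), as log2 of CPM + 1. The few bright columns are CT21, CT19, CT22 and CT15 at Day-1, CT3_2 at Day+3 and CT7_3 at Day+7, and Cdh1 is bright in all 10 Day+7 tumors.

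The high tumors were the same for most members. At Day-1, CT21, a CR tumor, held the highest level of 39 of the 41 genes, and CT15, a PR tumor, the highest of Krt77 and Flg2. At Day+3 the PR tumor CT3_2 was highest for 40 of 41, all but Krt77. At Day+7 the CR tumor CT7_3 was highest for 36. Summed over the 41 genes the level was 1577 CPM in CT3_2, 1553 CPM in CT21, 1218 CPM in CT7_3, 934.2 CPM in CT15, 654.5 CPM in CT19, 500.4 CPM in CT7_10 and 264.9 CPM in CT22. Other tumors, CT26 and 6 more at Day+7, lay between CT22 and CT7_10, and in the Day+7 tumors CT7_4 and CT7_5, with no Krt5, the sum was mostly Cdh1, Epcam and Asprv1. None of the 5 CR Day+3 tumors was high.

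Krt5, the basal keratin with the highest mean level in CPM (GRCm38 chr15:101707070-101712898), was at 0 to 191 CPM in CR Day-1 tumors with a median of 2.28 CPM, and at 0 to 136.5 CPM in PR Day-1 tumors with a median of 0.997 CPM. It reached 10 CPM in 5 of 13 CR and 5 of 13 PR tumors at Day-1. The titles of the Day-1 tumors are numbered, and none of the 14 numbered up to 14 (7 CR, 7 PR) exceeded 4.54 CPM, while 10 of the 12 numbered above 14 (6 CR, 6 PR) reached 10 CPM. The same 10 of 12 and 0 of 14 held for Elovl4, and for Krt10 it was 4 of 12 and 0 of 14. The labels do not say that the number marks a batch, and the number held as many CR as PR tumors on either side. Among the tumors numbered above 14, Krt5 was at 0.431, 24.5, 29.8, 34.6, 94.4 and 191 CPM in CR tumors and at 0.166, 15.0, 21.1, 24.2, 44.0 and 136.5 CPM in PR tumors, so the response groups overlapped within them. What the number stands for was not tested.

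At Day+3, Krt5 was at 0.344, 0.538, 0.215, 0.287 and 0.852 CPM in CR tumors and at 170.1, 2.01, 0.225, 3.44 and 1.20 CPM in PR tumors. Only CT3_2 was high. At Day+7 it was at 7.86, 123.4, 0, 21.9 and 0 CPM in CR tumors and at 12.1, 0, 0, 13.0 and 58.4 CPM in PR tumors, so 5 of the 10 tumors reached 10 CPM. Krt15, a basal keratin also made in hair follicle stem cells, followed a like order. Its median was 3.00 CPM in CR and 1.64 CPM in PR tumors at Day-1, 0.478 CPM in CR and 0.835 CPM in PR tumors at Day+3, and 7.80 CPM in CR and 7.47 CPM in PR tumors at Day+7. Its highest value was 53.5 CPM in CT7_3, ahead of 28.9 CPM in CT3_2 and 26.2 CPM in CR Day-1 tumors.

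**Figure D2:**
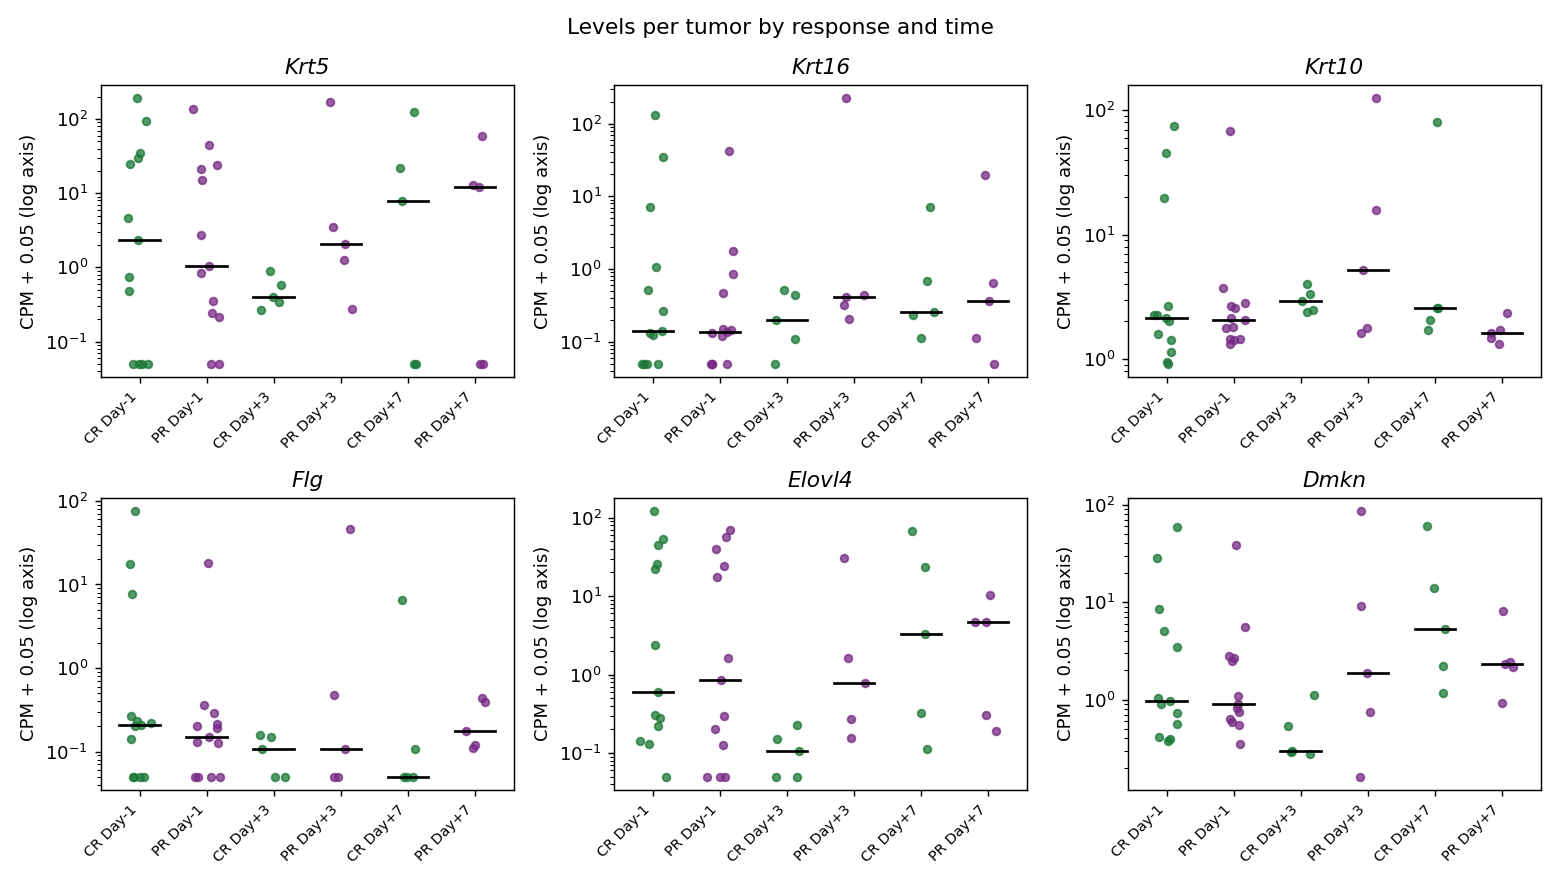
Levels of Krt5, Krt16, Krt10, Flg, Elovl4 and Dmkn in each tumor (points) by response and time, on log axes of CPM + 0.05, with the median of each group as a bar. A few tumors lie far above their group's median, while the 5 CR Day+3 tumors lie close together, with Krt5 between 0.215 and 0.852 CPM.

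Krt10, the keratin of the suprabasal layers (chr11:99385254-99389364), had a floor that Krt5 lacked: it was at 0.861 CPM or more in every tumor, and at 1 CPM or more in 44 of 46. At Day-1 it was at 0.861 to 74.3 CPM in CR tumors (median 2.07) and at 1.27 to 68.1 CPM in PR tumors (median 2.02). Only CT21, CT15, CT19 and CT22 reached 10 CPM, with 74.3, 68.1, 44.99 and 19.8 CPM. At Day+3 it was at 2.33 to 3.96 CPM in the CR tumors and at 125.1, 15.7, 1.57, 1.72 and 5.16 CPM in the PR tumors. At Day+7 it was at 1.66, 81.1, 2.02, 2.53 and 2.50 CPM in CR tumors, against 1.26 to 2.29 CPM in PR tumors, so CT7_3 alone was high.

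The basal and suprabasal keratins did not always come together. In 6 tumors (CT21, CT15, CT19, CT22, CT3_2 and CT7_3) Krt5 and Krt10 both reached 10 CPM, in 10 Krt5 alone did, and in CT3_5, a PR Day+3 tumor, Krt10 alone did. These classes are cut at a level set after the values were seen, and they describe single tumors. The ratio of Krt10 to Krt5 counts was 0.389 in CT21, 0.477 in CT19, 0.499 in CT15, 0.573 in CT22, 0.657 in CT7_3 and 0.736 in CT3_2. It was 7.79 in CT3_5. Among the Day-1 tumors with Krt5 alone (CT18 and CT23 from CR mice, CT17, CT24, CT25 and CT26 from PR mice) it lay between 0.0633 and 0.243.

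Those 6 Day-1 tumors had Krt5, Krt79 and Elovl4 but little of Krt1 and the envelope genes. Krt5 was at 15.0 to 44.0 CPM, Krt79 at 5.84 to 27.8 CPM and Elovl4, which makes very long fatty acids for epidermal and sebaceous lipids, at 17.5 to 57.2 CPM. In the same tumors Krt1 was at 0 to 0.692 CPM, Flg at 0 to 0.239 CPM, Lor at 0 to 0.0989 CPM and Cnfn, encoding the envelope protein cornifelin, at 0. Not every lipid or late gene followed this. The lipid genes Alox12b, Lipm, Aloxe3 and Cers3 were at 0 to 0.657 CPM in these 6, while Cdsn, encoding corneodesmosin of the outer layers, was at 1.82 to 4.77 CPM and the kallikrein Klk7 at 0.219 to 1.19 CPM, against at most 0.864 and 0 CPM in the 16 Day-1 tumors with Krt5 under 10 CPM. The ratio of Elovl4 to Krt5 counts was 1.04 to 1.66 in the 6 tumors, against 0.636 in CT21, 0.510 in CT15, 0.568 in CT19 and 0.642 in CT22. Outside the list, the sebaceous gland genes Fa2h and Elovl3 were at 7.42 to 18.5 CPM and 1.68 to 8.59 CPM in these 6. At Day+7, CT7_6 (CR) and CT7_1, CT7_9 and CT7_10 (PR) were similar in having Krt5 at 12.1 to 58.4 CPM beside Krt10 at 1.41 to 2.53 CPM and Flg at 0.0575 to 0.385 CPM. They differed in the ratio of Elovl4 to Krt5 counts, which was 1.08 in CT7_6, 0.388 in CT7_1, 0.358 in CT7_9 and 0.178 in CT7_10. Fa2h was at 3.80, 1.28, 1.45 and 2.37 CPM in the same order, below the 6 Day-1 tumors.

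**Figure D3:**
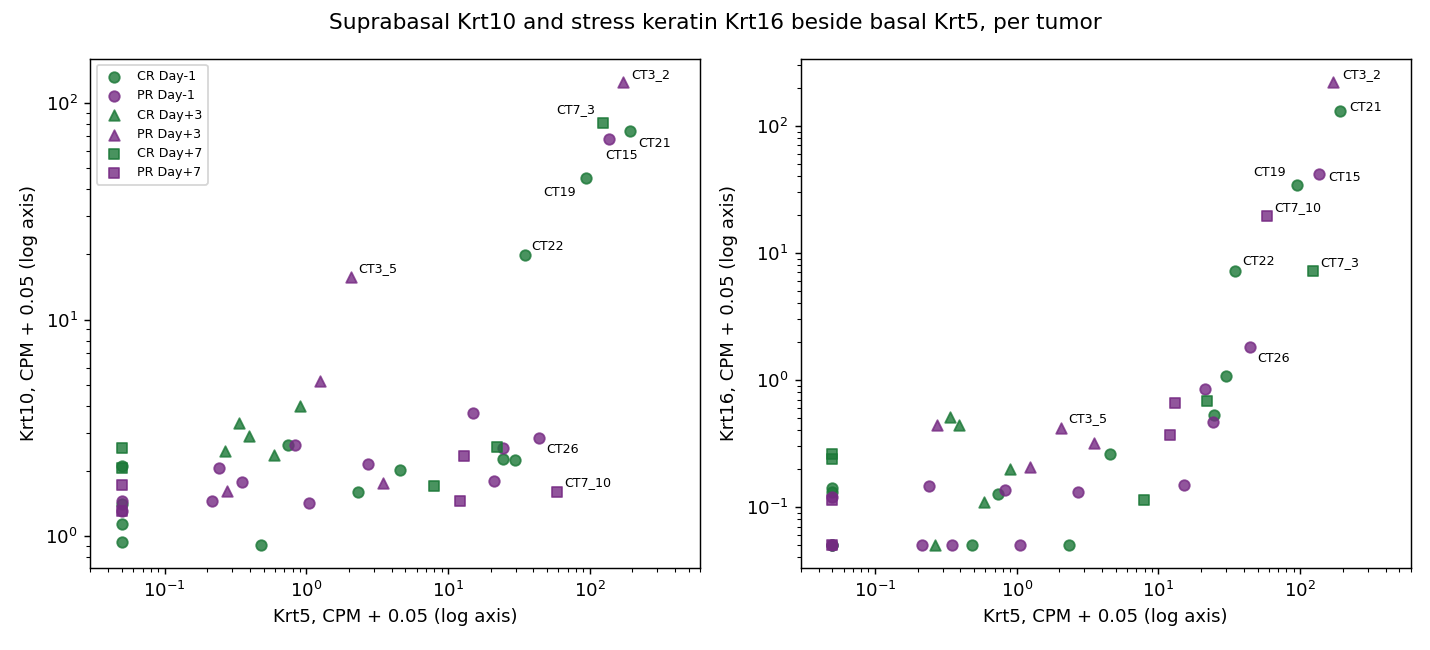
Krt10 (left) and Krt16 (right) against Krt5 in each of the 46 tumors, in CPM + 0.05 on log axes, with color for response and marker shape for time. Tumors with Krt5 above 10 CPM fall apart into 6 with high Krt10 and 10 with Krt10 below 4 CPM, and CT3_5 has 15.7 CPM of Krt10 beside 2.01 CPM of Krt5.

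Krt16, the stress keratin with the higher mean, reached 1 CPM in only 9 tumors. It was at 0 to 130.9 CPM in CR Day-1 tumors (median 0.0907) and at 0 to 41.8 CPM in PR Day-1 tumors (median 0.0865). The highest value of all was 222.4 CPM in CT3_2, while the other 9 Day+3 tumors were at 0 to 0.460 CPM. At Day+7, CT7_10 had 19.4 CPM and CT7_3 had 7.13 CPM, and the remaining 8 had 0 to 0.633 CPM. The ratio of Krt16 to Krt5 counts ranged more widely than that of Krt14 to Krt5 in these tumors. It was 1.31 in CT3_2, 0.686 in CT21, 0.365 in CT19, 0.332 in CT7_10, 0.306 in CT15, 0.207 in CT22 and 0.0578 in CT7_3, where Krt14 to Krt5 was 1.37 in CT3_2, 1.47 in CT21, 0.885 in CT15 and 0.730 in CT7_3. Krt6a and Krt6b, partners of Krt16 and outside the list, were at 148.5 and 226.4 CPM in CT3_2 and at 182.1 and 223.7 CPM in CT21, but at 9.27 and 2.96 CPM in CT7_3. The share of stress keratins beside basal ones thus differed among the high tumors.

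Krt77, a suprabasal keratin related to Krt1, also differed among the high tumors. Its ratio to Krt1 was 5.26 in CT3_5 and 2.23 in CT7_3, against 0.5 in CT19, 0.0895 in CT3_2 and 0.0333 in CT21. In CPM it was 78.5 in CT7_3, 16.1 in CT3_5, 14.8 in CT15, 13.9 in CT19, 7.12 in CT3_2 and 1.63 in CT21. CT21, highest for 39 genes at its time point, was low in this one.

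Krt79, the infundibular keratin, was at 0.0763 to 58.1 CPM in CR Day-1 tumors (median 0.638) and at 0 to 42.6 CPM in PR Day-1 tumors (median 0.323). At Day+3 it was at 0.0491 to 0.239 CPM in CR tumors and at 0.0561 to 10.3 CPM in PR tumors, and at Day+7 at 0 to 54.4 CPM in CR and 0.377 to 18.2 CPM in PR tumors. Dsp encodes desmoplakin, which anchors keratin filaments to the desmosome. Its level was 0.0862 to 83.9 CPM in CR and 0.141 to 68.5 CPM in PR tumors at Day-1, 0.268 to 0.785 CPM in CR and 0.112 to 66.2 CPM in PR tumors at Day+3, and 0.689 to 51.8 CPM in CR and 0.566 to 15.2 CPM in PR tumors at Day+7. It reached 1 CPM in 23 of 46 tumors, as many as Krt5.

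Dsg3 and Dsc3 encode the desmosomal cadherins of the lower epidermis and Dsc1 one of the upper layers. The highest Dsg3 level was 19.7 CPM in CR and 9.43 CPM in PR tumors at Day-1, 0.150 CPM in CR and 7.75 CPM in PR tumors at Day+3, and 4.50 CPM in CR and 3.46 CPM in PR tumors at Day+7. The highest Dsc3 level was 38.0 CPM in CR and 27.0 CPM in PR tumors at Day-1, 0.239 CPM in CR and 16.8 CPM in PR tumors at Day+3, and 14.9 CPM in CR and 3.80 CPM in PR tumors at Day+7. Dsc1 had no count in any of the 5 CR Day+3 tumors and reached 17.2 CPM in CT21, and it was at 1 CPM or more in 6 tumors, compared with 14 for Dsg3 and 15 for Dsc3. Evpl, encoding envoplakin, which links the desmosome to the cornified envelope, was the desmosomal member found most widely, at 1 CPM or more in 42 tumors. It was at 0.610 to 10.1 CPM in CR and 1.16 to 7.38 CPM in PR tumors at Day-1, 1.49 to 4.51 CPM in CR and 2.30 to 9.06 CPM in PR tumors at Day+3, and 0.814 to 3.68 CPM in CR and 0.906 to 2.31 CPM in PR tumors at Day+7.

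The cornified envelope genes were concentrated in single tumors. Flg, whose promoter is shown above, was at 1 CPM or more in 6 of 46 tumors: 75.8 CPM in CT21, 45.5 CPM in CT3_2, 17.98 CPM in CT15, 17.4 CPM in CT19, 7.67 CPM in CT22 and 6.48 CPM in CT7_3. These are the 6 tumors in which both Krt5 and Krt10 reached 10 CPM. Lor was at 45.4 CPM in CT3_2, 11.3 CPM in CT21 and 3.60 CPM in CT3_5, which had only 0.423 CPM of Flg. Summed over the 6 envelope genes, 90.5% of the level in the 10 Day+3 tumors lay in CT3_2, 94.2% of that in the 10 Day+7 tumors in CT7_3, and 49.4% of that in the 26 Day-1 tumors in CT21. For the pair of adhesion genes these shares were 24.0% in CT3_2, 12.5% in CT7_1 and 7.02% in CT21, and for the stress keratins 98.3% in CT3_2, 51.7% in CT7_10 and 48.8% in CT21. The sum of this pair, mostly Cdh1, was thus spread much more evenly. Epcam alone was at 10.95 CPM in CT3_2 and at 1.24 to 2.85 CPM in the other Day+3 tumors.

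Among the barrier proteases, only Asprv1 (chr6:86628164-86629710) was at 1 CPM or more in every tumor. It was at 1.63 to 28.9 CPM in CR and 1.73 to 17.9 CPM in PR tumors at Day-1, while Casp14, the caspase of cornifying cells, was at 0 in 33 of 46 tumors and Klk5 in 33. Klk8, a kallikrein of the upper epidermis, had a count in every tumor. Its level was 0.455 to 4.50 CPM in CR and 0.384 to 1.10 CPM in PR tumors at Day-1. Among the lipid genes Elovl4 was the highest, with 121.5 CPM in CT21, and reached 1 CPM in 20 tumors, but Lipm, a lipase of the granular layer, reached it in 4 and had a highest level of 5.13 CPM, in CT3_2. Dmkn, encoding dermokine, a secreted epidermal protein, was at 85.9 CPM in CT3_2, 60.4 CPM in CT7_3, 59.0 CPM in CT21 and 38.0 CPM in CT15, with group medians of 0.245 to 5.22 CPM.

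Levels of CR and PR tumors were compared at each time to ask whether skin genes differed with the outcome. No member was called in any of the 3 comparisons by edgeR's quasi-likelihood (QL) test with the false discovery rate (FDR) set under 0.1. At Day-1, 12 of the 41 genes passed the low count filter and 0 were called, where 0.00928% of 10777 genes were. DESeq2 called 0 and limma-voom with quality weights 1. Of the 12, 1 had an unadjusted p under 0.05, as did 17.5% of all genes: Cdh1, with 17.7, 24.1 and 35.5 CPM as the lowest, median and highest CR value and 9.34, 19.9 and 35.3 CPM in PR tumors. Its log2 fold change was 0.37 (SE 0.145, edgeR adjusted p = 0.199), and limma-voom, which called it, gave 0.41 (adjusted p = 0.0857). The log2 fold changes of Krt5 (0.62, SE 1.01) and Krt10 (0.72, SE 0.817) were smaller than their errors. Without CT21, both were negative, at -0.26 and -0.09. The same tumor decided the sign for Elovl4, Dmkn and Asprv1.

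At Day+3, 12 members were tested, 9 had an unadjusted p under 0.05 (2.16% of all genes did) and 0 were called by edgeR (0% of 11839 genes), by DESeq2 or by limma-voom. All 12 were lower in CR tumors, with a median log2 difference of -2.39 beside -0.0013 over all genes. Krt5 differed by -6.30 (SE 1.78) and Krt10 by -3.34 (SE 1.09), both with an edgeR adjusted p = 1. Without CT3_2 the values were -1.91 and -1.01, that of Dmkn -2.65 instead of -5.41, and that of Asprv1 -0.20 instead of -1.59. At Day+7, 15 members were tested, 3 had an unadjusted p under 0.05 (2.84% of all genes did) and 0 were called by edgeR (0% of 11727 genes), DESeq2 or limma-voom. Krt10 differed most among the 4 named here, at 3.48 (SE 1.18, edgeR adjusted p = 0.967), and at 0.41 without CT7_3. Elovl4 differed by 2.26 and Dmkn by 2.43, and without CT7_3 by 0.80 and 0.87. Asprv1 differed by 0.97, and by 0.78 to 1.29 when any 1 tumor was left out. Asprv1 was at 90.2, 58.4, 77.9, 48.9 and 22.7 CPM in CR tumors and at 21.7, 32.1, 14.3, 54.1 and 29.5 CPM in PR tumors, which overlap.

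The change from Day-1 to Day+3 asks what differed 3 days after CY, with CR and PR tumors weighted equally in a model of all 46. Of the 41 members, all tested here, 1 rose and 9 fell at edgeR FDR under 0.1, against 37.9% of 13194 genes higher and 39.6% lower (77.6% called). Fewer of the members were called than of genes in general, and their median standard error was 1.12, against 0.102 over all genes. The median log2 fold change of the 41 was -1.02, against -0.02 over all genes, with 33 negative and 8 positive. It was -1.02 also without Dsc1, Cnfn, Klk5 and Il1f5, which had no count in any CR Day+3 tumor and whose fitted values depend on the prior count. The genes that fell were the basal keratins Krt5 (-2.55, SE 1.30, edgeR adjusted p = 0.0735) and Krt15 (-1.85, SE 1.01, 0.0953), the infundibular Krt79 (-3.88, SE 1.26, 0.00561), the desmosomal Dsp, Dsg3, Dsc1 and Dsc3, the adhesion gene Cdh1 and the lipid enzyme Elovl4. None of the 6 envelope genes, 3 suprabasal keratins or 2 stress keratins was called, but Flg, Hrnr, Ivl, Cnfn, Krt1, Krt16 and Krt17 were called lower when CT3_2 was left out.

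The level of Elovl4 differed mainly through the 10 high Day-1 tumors, all numbered above 14 in their titles. It was at 0, 0.179, 0, 0.0575 and 0.1003 CPM in CR Day+3 tumors and at 30.9, 0.741, 0.225, 1.56 and 0.104 CPM in PR Day+3 tumors, against medians of 0.546 CPM in CR and 0.807 CPM in PR Day-1 tumors with maxima of 121.5 and 69.6 CPM. The 14 Day-1 tumors numbered up to 14 were at 0 to 2.34 CPM, within the range of the Day+3 tumors. Its log2 fold change was -4.71 (SE 1.49, edgeR adjusted p = 0.00465), and limma-voom gave -2.84 and did not call it (adjusted p = 0.267). Krt5, Krt79, Dsg3 and Dsc3 were high in the same Day-1 tumors. In the 16 Day-1 tumors with Krt5 under 10 CPM they reached at most 4.54, 0.646, 0.646 and 0.727 CPM. In the Day+3 tumors other than CT3_2 they reached at most 3.44, 0.582, 0.269 and 1.06 CPM. Cdh1 had the smallest error, with a log2 fold change of -1.03 (SE 0.156, adjusted p = 1.12e-07). It was at 8.10, 9.50, 8.43, 14.5 and 11.3 CPM in CR Day+3 tumors and at 22.2, 8.57, 6.23, 11.2 and 10.8 CPM in PR Day+3 tumors, against 9.34 to 35.5 CPM at Day-1. The ranges overlapped, and 9 of the 10 Day+3 tumors were below the Day-1 median of 21.8 CPM.

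The desmosomal genes differed in how firm their calls were. Dsg3 fell by 2.98 (SE 1.12, edgeR adjusted p = 0.0162), Dsc3 by 2.75 (SE 1.22, 0.0405), Dsc1 by 3.31 (SE 1.78, 0.0917) and Dsp by 1.90 (SE 1.03, 0.0927) on the log2 scale. For Dsc1, DESeq2 gave -0.06 with no adjusted p, limma-voom -1.04, and edgeR without CT15 -1.28, none of which was a call. Limma-voom also lost Krt79 (-1.95, adjusted p = 0.243) and Dsc3 (-1.39, 0.332), but still called Dsg3. For Krt5, Krt15, Dsp and Dsc1 the unadjusted p was above 0.05, and 75.2% of all genes had one under 0.05. Krt5, Krt15 and Dsp were not called without CT15 (-2.02, -1.69 and -1.35) or without CT21 (-2.11, -1.63 and -1.41). Krt15 lost its call in 28 of 53 alternatives. Asprv1 was the 1 member that rose, by 1.13 (SE 0.391, adjusted p = 0.00914), with 5.06, 6.99, 4.51, 7.64 and 4.71 CPM in CR and 59.4, 9.10, 5.17, 6.61 and 5.74 CPM in PR Day+3 tumors, against medians of 2.67 and 2.73 CPM at Day-1. Without CT3_2 the log2 fold change of Asprv1 was 0.44 and it was not called. Without CT3_2 29 members were called, all lower, 9 of them shared with the 10. In that fit 76.5% of all genes were called. Without CT15, CT3_1, CT3_4 or CT3_8 the count was 6. DESeq2 called 10, limma-voom 5.

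**Figure D4:**
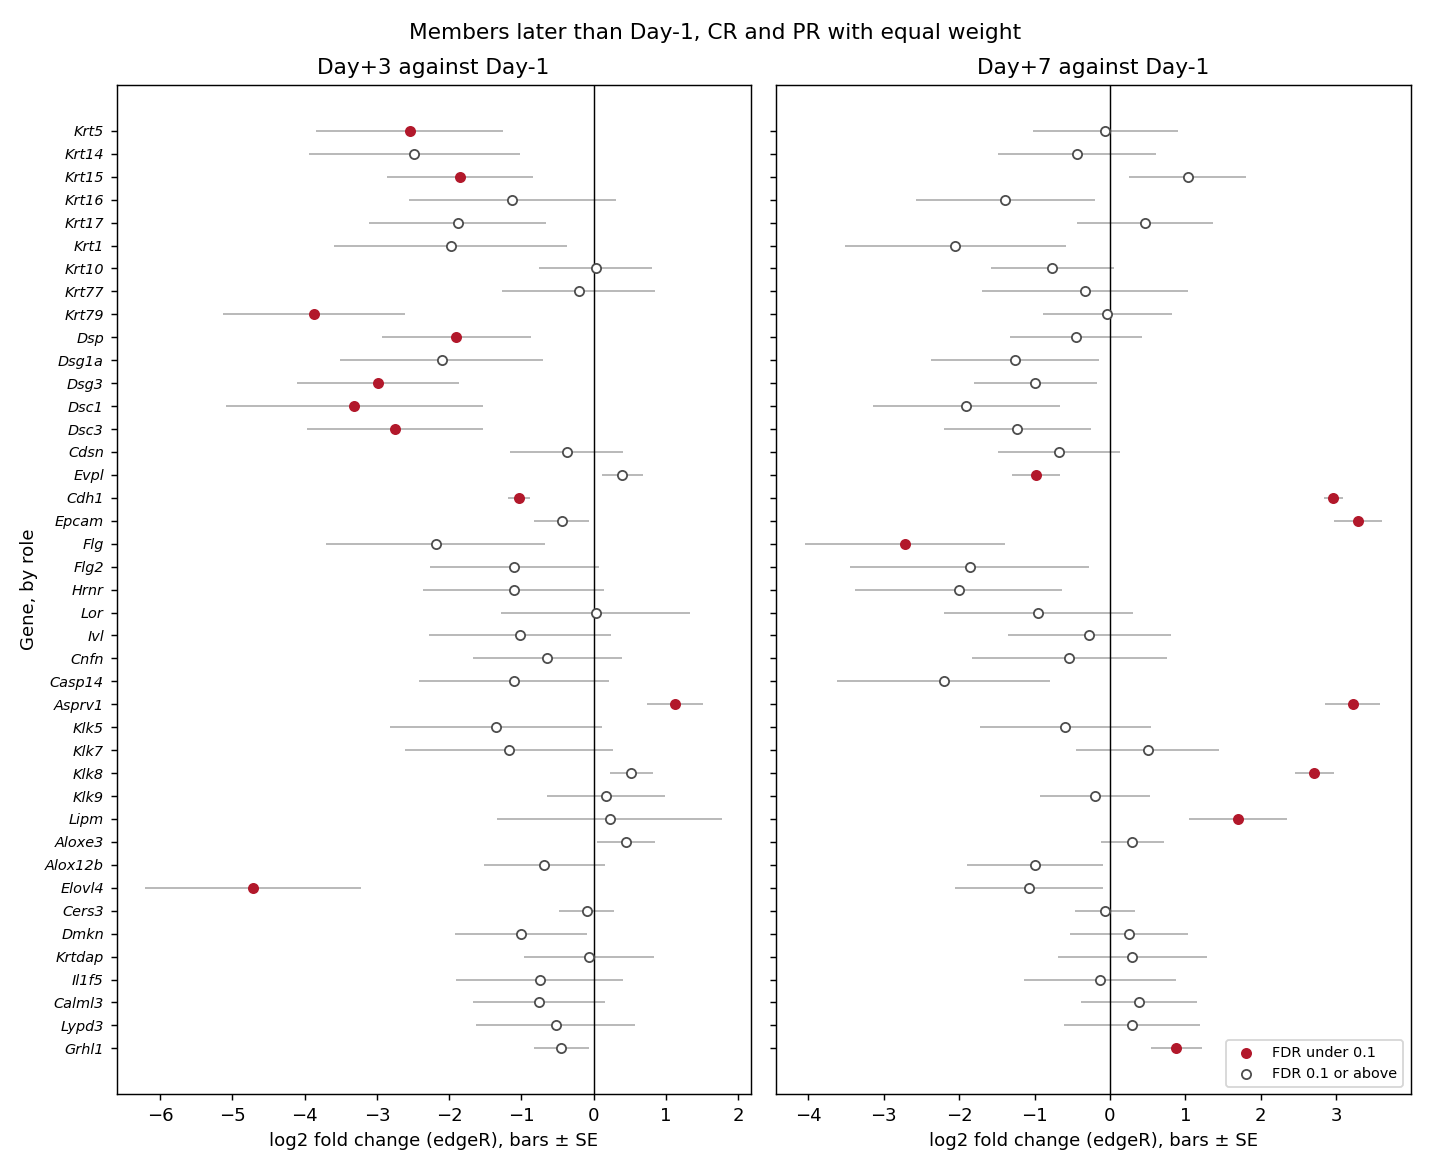
Log2 fold change of each of the 41 genes at Day+3 (left) and Day+7 (right) over Day-1, with CR and PR weighted equally and bars of 1 SE, filled red where edgeR's FDR was under 0.1. Most bars are wide and cross 0, while Cdh1, Epcam, Asprv1 and Klk8 at Day+7 lie at 2.71 to 3.29 with narrow bars.

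At Day+7 another set of members was called, namely 6 that rose and 2 that fell, against 43.0% of 13194 genes higher and 42.8% lower (85.9% called). The 41 had a median log2 fold change of -0.33, against -0.01 over all genes, with 14 positive and 27 negative. Cdh1 rose by 2.96 (SE 0.129, edgeR adjusted p = 6.26e-25), Epcam, encoding the epithelial adhesion molecule EpCAM, by 3.29 (SE 0.318, 6.92e-13), Asprv1 by 3.22 (SE 0.367, 7.68e-11) and Klk8 by 2.71 (SE 0.263, 7.21e-13). The transcription factor Grhl1, which regulates a desmosomal cadherin in epidermis, rose by 0.88 (SE 0.339, 0.0162) and Lipm by 1.69 (SE 0.650, 0.0156). Evpl fell by 0.98 (SE 0.320, 0.00484) and Flg by 2.71 (SE 1.33, 0.0561). No basal, stress or suprabasal keratin was called: Krt5 differed by -0.06 (SE 0.957) and Krt10 by -0.76 (SE 0.816).

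**Figure D5:**
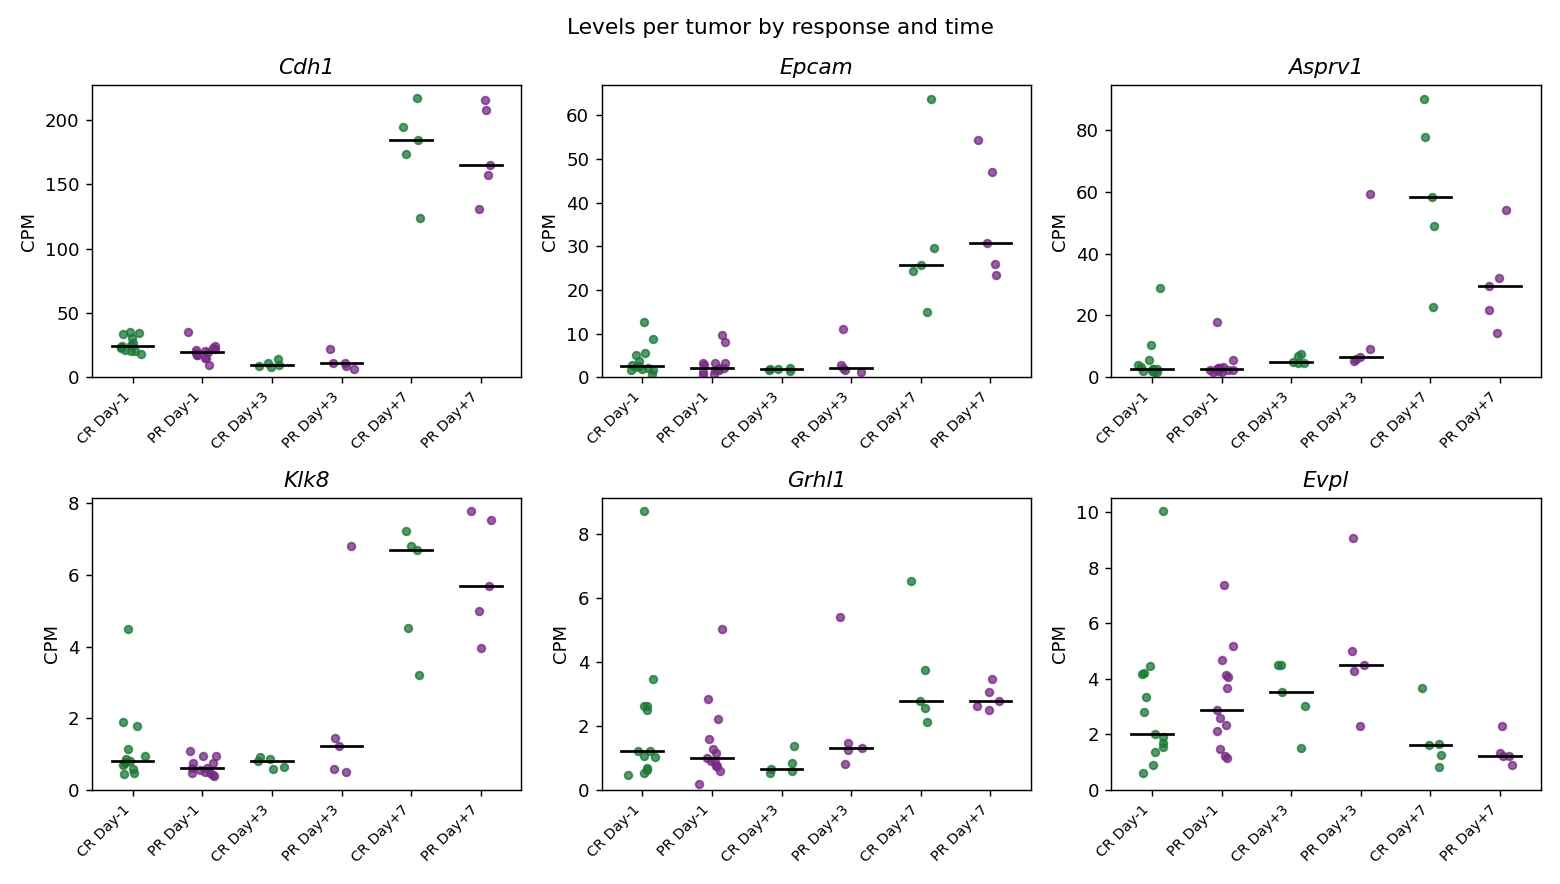
Levels in CPM of Cdh1, Epcam, Asprv1, Klk8, Grhl1 and Evpl in each tumor (points) by response and time, with the median of each group as a bar, on linear axes from 0. The 10 Day+7 tumors lie at 124.0 to 216.7 CPM for Cdh1 and 14.9 to 63.8 CPM for Epcam, above every Day-1 tumor.

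Cdh1 (chr8:106603351-106670246) was at 173.3, 184.2, 216.7, 194.3 and 124.0 CPM in CR Day+7 tumors and at 215.2, 207.5, 164.8, 130.9 and 157.2 CPM in PR Day+7 tumors, against 9.34 to 35.5 CPM in the 26 Day-1 tumors. Epcam was at 25.7, 63.8, 29.6, 14.9 and 24.4 CPM in CR and at 47.1, 23.5, 54.3, 26.03 and 30.6 CPM in PR Day+7 tumors, against 0.603 to 12.5 CPM at Day-1. These were the only 2 members whose Day+7 and Day-1 ranges did not overlap, both being higher at Day+7, where 39.4% of 13194 genes did not overlap and 19.8% did not overlap and were higher. Such separation was thus less common among the members than among all genes. Both encode adhesion proteins of epithelial cells that Langerhans cells of the epidermis also carry. Beside them, the summed level of 7 leukocyte marker genes was 6933 to 20120 CPM at Day+7, most of it Cd74, against 1386 to 3925 CPM at Day-1. Without Cd74 the sum was 1916 to 2870 CPM at Day+7, against 1017 to 1513 CPM at Day-1. The sum of 6 fat cell genes was 561.8 to 1220 CPM at Day+7, against 128.5 to 317.6 CPM at Day-1, and without Lpl 153.4 to 526.9 CPM, against 60.8 to 212 CPM, with Lep lower. The part of these cells in the result was not tested. In bulk tumors, more cells of a type and more RNA per cell cannot be told apart.

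Asprv1 was at 22.7 to 90.2 CPM in CR and 14.3 to 54.1 CPM in PR Day+7 tumors, against 1.63 to 28.9 CPM in all Day-1 tumors. CT7_3 was not the highest of them, unlike for Krt5 and Krt10. Klk8 was at 6.71, 7.24, 4.52, 3.22 and 6.82 CPM in CR and at 5.71, 3.97, 7.79, 5.002 and 7.53 CPM in PR Day+7 tumors, against medians of 0.816 CPM in CR and 0.603 CPM in PR Day-1 tumors and a highest Day-1 value of 4.50 CPM. Grhl1 was at 2.13 to 6.53 CPM in CR and 2.51 to 3.46 CPM in PR Day+7 tumors, against 0.192 to 8.71 CPM at Day-1, which overlap. Lipm rests on CT7_3: without it the log2 fold change was 0.89 and Lipm was not called. The fall of Flg was no longer called without CT15 (-0.85) or without CT21 (-1.78). DESeq2 gave it a log2 fold change of 0.18, slightly higher at Day+7, but with no p-value.

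Leaving out CT7_3 changed the Day+7 calls more than any other alternative run. Without it 22 members were called, 5 higher (Cdh1, Epcam, Asprv1, Klk8 and Grhl1) and 17 lower, and 7 of the 8 were among them. The 17 were Krt1, Krt10, Krt77, Krt16, the desmosomal Dsg1a, Dsg3, Dsc1, Dsc3, Cdsn and Evpl, the envelope genes Flg, Flg2, Hrnr and Lor, the proteases Casp14 and Klk5, and Alox12b. Krt10 then differed by -2.28 (edgeR adjusted p = 0.0158). In that fit 85.0% of all genes were called. Without CT7_10 the count was 10, and DESeq2 and limma-voom each called 7.

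Whether the change since Day-1 differed between CR and PR tumors was tested as a difference of the 2 changes. At Day+3 edgeR called 0 of the 41 members (0% of 13194 genes), DESeq2 0 and limma-voom 0, and 34 had an unadjusted p under 0.05, as did 3.49% of all genes. The values of all 41 were negative, among them Krt5 at -6.89 and Krt16 at -9.54. Without CT3_2 the difference of Krt5 was -2.55 and that of Krt16 -2.36, and 0 were called. Without CT15, 7 were called by edgeR (Casp14, Dmkn, Flg, Hrnr, Krt1, Krt16 and Lor), with 0.0759% of all genes, and Krt16 was then at -13.13 (adjusted p = 0.0494). At Day+7 edgeR, DESeq2 and limma-voom called 0 (edgeR called 0.00758% of 13194 genes), and 2 members had an unadjusted p under 0.05, as did 11.5% of all genes.

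Other genes of skin were counted from lists outside the 41. Over all 13194 genes, 37.9% were higher and 39.6% lower at Day+3, and 43.0% were higher and 42.8% lower at Day+7. Of 33 further epidermal differentiation genes, 23 were tested, with 2 higher and 3 lower at Day+3 and 4 higher and 5 lower at Day+7. In the edgeR test 5 of the 23 had an unadjusted p under 0.05 at Day+3 and 8 at Day+7. Krt80, a keratin also found outside skin, differed by -2.38 at Day+3 and -1.04 at Day+7. Of 8 hemidesmosome and basement membrane genes, which hold basal cells to the dermis, 7 were tested, with 3 higher and 2 lower at Day+3 and 1 higher and 5 lower at Day+7, including Itga6 at -1.03 and -2.89. Their summed level was 683.5 to 970.9 CPM at Day-1, 468.0 to 564.5 CPM at Day+3 and 240.0 to 384.3 CPM at Day+7, and most of it came from Dst and Itga6, which many cell types make. Col17a1, the collagen of keratinocyte hemidesmosomes, was highest in CT21 (37.8 CPM), CT3_2 (30.4 CPM) and CT7_3 (27.4 CPM) at the 3 times. Of 9 epithelial transcription factors 7 were tested, with 0 higher and 1 lower at Day+3 and 2 higher and 1 lower at Day+7. The higher were Klf4 (1.01) and Ehf (0.88). Of the 7, 0 had an unadjusted p under 0.05 in the edgeR test at Day+3 and 1 at Day+7. Of all genes, 75.2% and 83.9% did.

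Markers of skin appendages were highest in the same tumors as most of the keratinocyte genes. The 5 sebaceous gland genes summed to 0.994 to 59.3 CPM at Day-1, highest in CT21, to 0.898 to 10.7 CPM at Day+3, highest in CT3_2, and to 1.19 to 31.7 CPM at Day+7, highest in CT7_3. All 5 fell at Day+3, among them Fa2h (-3.53) and Elovl3 (-2.97), and 1 fell at Day+7, where 39.6% and 42.8% of 13194 genes fell. For the 1 at Day+7 the unadjusted p of the edgeR test was not under 0.05. Fa2h was at 0 to 0.865 CPM in the Day-1 tumors with Krt5 under 10 CPM, against 7.42 to 35.9 CPM in the others. The 13 hair follicle genes, most of them hair shaft and inner root sheath keratins, reached at most 4.21 CPM in sum, and 11 to 13 of them were below 1 CPM in every tumor of each time point. Of the 9 mesothelial genes, Lrrn4, Muc16, Calb2, Gpm6a, Krt18 and Krt19 were below 1 CPM in every tumor. Msln, at 283.3 to 580.0 CPM at Day-1, Krt7 and Krt8 were expressed. The 9 genes summed to 290.6 to 614 CPM at Day-1 and to 54.0 to 135 CPM at Day+7. Skeletal muscle genes summed to 155.5 to 1304 CPM at Day-1 and 395 to 2406 CPM at Day+7, with their highest tumors CT7 and CT7_8 other than those of the keratinocyte genes. How much of each tumor was skin, muscle or fat at surgery was not tested.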

How the data were processed

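RNA had been extracted from 46 AB1-HA tumors with Trizol, sequenced single-end and, per the submitters' processing notes, quantified with kallisto on GRCm38.p6. Versions are not given in the sources used here, and the sources differ on read length. The authors deposited whole-number counts per gene, not normalized, in 1 table of 46012 rows, all of whose sample columns were matched (0 unmatched). The last row, which is incomplete, was left out, and 13 names look like dates. Totals were 10227681 to 19446596 counts per tumor.

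Counts were tested in R 4.3.3 with edgeR 4.0.16 (TMM, filterByExpr, quasi-likelihood, Benjamini-Hochberg over all genes tested, FDR under 0.1), with DESeq2 1.42.0 and limma 3.58.1 (voom with quality weights) as alternatives. CR and PR were compared within a time on that time's tumors, and times in a 6-group model of all 46. Differences between times are also differences in tumor age and depth. Other alternatives were size factors, filters, the FDR, the revised quasi-likelihood fit and leaving out each tumor. The code was tested on simulated data. CPM used TMM-scaled totals, and levels per kilobase 1 GENCODE M21 transcript per gene. The p-values measure the spread between mice. The members, role groups and other lists were chosen with earlier results of these data known. Named with values were the member of highest mean CPM in each of 10 role groups and every member called. Others were named by range, count or after their values were seen. Proteins were not used here.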

Additional observations from a re-analysis of the deposited data

Results flagged for a closer look

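In groups of 5 tumors, the 19 named genes' highest or lowest value was set against the range of its group, and 35 of 75 such groups had 1 tumor far from the other 4 (Dsc1 had no count in CR Day+3 tumors). In independent groups of normally distributed values chance gives about 1 in 20. The CPM values here are skewed, and these 75 groups share the same 20 tumors and their genes vary together, so that is no chance value here. In all 35 the tumor was the highest of its group, and it was 1 of 3 tumors.

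The PR Day+3 tumor CT3_2 stood apart for 17 genes. Its keratins were Krt16 at 222.4 CPM, Krt5 at 170.1 CPM, Krt10 at 125.1 CPM, Krt15 at 28.86 CPM and Krt79 at 10.32 CPM. The desmosomal genes were Dsp at 66.16 CPM, Dsc3 at 16.76 CPM, Dsg3 at 7.752 CPM and Dsc1 at 5.814 CPM, beside the adhesion gene Epcam at 10.95 CPM. The barrier genes were Dmkn at 85.91 CPM, Asprv1 at 59.35 CPM, Flg at 45.52 CPM, Elovl4 at 30.91 CPM, Klk8 at 6.81 CPM, Grhl1 at 5.395 CPM and Lipm at 5.133 CPM.

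The CR Day+7 tumor CT7_3 stood apart for 10 genes, which included both early and late ones: Krt5 at 123.4 CPM, Krt10 at 81.05 CPM, Dmkn at 60.42 CPM, Krt79 at 54.43 CPM, Dsp at 51.8 CPM, Dsc3 at 14.87 CPM, Krt16 at 7.134 CPM, Flg at 6.475 CPM, Lipm at 3.238 CPM and Dsc1 at 2.853 CPM.

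The PR Day+7 tumor CT7_10 stood apart for 8 genes, with Krt5 at 58.37 CPM, Krt16 at 19.39 CPM, Krt79 at 18.24 CPM, Dsp at 15.19 CPM, Dmkn at 8.067 CPM, Dsc3 at 3.796 CPM, Dsg3 at 3.457 CPM and Dsc1 at 0.4745 CPM. Krt10 and Flg were not among them.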

How the results depend on the processing

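No paired analysis was possible because every tumor came from a different mouse and replicate numbers only name samples. Of 1527 refits of the 37 fold changes named, 1416 kept direction and side of the threshold, 87 lost a call, 3 gained one and 21 changed sign. For Day+3 over Day-1, where edgeR called 10 members, an FDR of 0.05 gave 6, limma-voom 5, no low count filter 6, and leaving out 1 tumor 6 to 29. For Day+7 over Day-1 (8 called) leaving out 1 tumor gave 7 to 22. For CR over PR at Day-1 (0 called) limma-voom gave 1, and for the CR and PR difference at Day+3 (0 called) leaving out 1 tumor gave 0 to 7. With 1 tumor left out, log2 fold changes of CR over PR at Day-1 ran from -0.26 to 1.68 for Krt5, -0.089 to 2.55 for Krt10, -0.38 to 0.82 for Elovl4, -0.08 to 2.42 for Dmkn and -0.20 to 0.97 for Asprv1, negative only without CT21. Krt5 in CR over PR tumors at Day+7 was -0.51 by limma-voom and -1.13 to 2.31 with 1 tumor left out. For Day+7 over Day-1 these ranges were -1.07 to 0.47 for Krt5 and -2.28 to 0.15 for Krt10, and DESeq2 gave 0.18 for Flg, with no p-value. The causes were not tested. At this depth most members had few or no counts in most tumors, so differences under the level of 3 counts were not detectable.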
